A study of Homo sapiens with 6 samples.

Results

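The respiratory complexes II to V genes were the rows of the deposited count table whose symbol begins with SDHA to SDHD, UQCR, COX4 to COX8 or ATP5, or is CYC1 or CYCS. The symbol alone chose them, so no measured value entered the choice, and 54 of the 23152 rows matched. By their known roles 8 belonged to complex II (4 subunits and 4 assembly factors), 10 to complex III, 1 was cytochrome c, 15 belonged to complex IV and 18 to complex V, and the other 2 rows, UQCRB-AS1 and UQCRFS1-DT, are noncoding neighbours of subunit genes. RNA from T24 cells, an established human bladder cancer line, was sequenced in 3 samples labelled vector and 3 labelled oeRNF112, an overexpression of the ubiquitin ligase gene RNF112, to look for transcripts that differ when RNF112 is raised. Both groups were grown in RPMI 1640 medium with serum, and the labels give no time. The treatment text of every sample describes siRNA transfection with Lipofectamine 3000, which is at odds with the group labels, and all samples come from 1 cell line. Nothing in the labels says that the replicates were separate cultures, so the p-values measure the spread between these samples, which may be technical.

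These genes encode the nuclear parts of the electron transport chain of the inner mitochondrial membrane. Complex II passes electrons from succinate to ubiquinone, complex III passes them from ubiquinol to cytochrome c, and complex IV passes them from cytochrome c to oxygen. Complexes III and IV pump protons as they do so, and complex V, the ATP synthase, uses the proton gradient to make ATP. Complex II is wholly nuclear encoded, whereas complexes III, IV and V also hold subunits encoded by mitochondrial DNA (mtDNA), so their assembly draws on both genomes.

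The total count per sample was 40029547 to 41259569, and the 100 most abundant genes took 18.0 to 22.9% of it. For RNF112 itself, vector 1 to 3 held 27, 19 and 24 counts and oeRNF112 1 to 3 held 29753, 36963 and 31712, which matches the labels. Of the epithelial markers, KRT7, KRT8 and KRT18 were abundant but CDH1 had at most 1 count. KRT18 and KRT7 fell and EPCAM rose (94, 66 and 99 counts in vector, 143, 183 and 165 in oeRNF112), and the epithelial sum was a normalised read count (CPM) of 3527 to 4545 in vector and 2707 to 3249 CPM in oeRNF112. Of the 10 leukocyte markers, 2 (CD68 and CORO1A) rose and 1 (LAPTM5) fell among the 7 tested, and their sum was 47.4 to 59.3 CPM in vector and 86.9 to 110 CPM in oeRNF112. Of all genes tested, 8.14% fell and 9.97% rose. The defining leukocyte genes were near 0, with 24 to 54 counts for PTPRC, at most 4 for CD3E and at most 2 for TYROBP. The part of these shifts in the results that follow was not tested. Less RNA of a gene per cell and fewer cells that express it cannot be told apart in bulk samples.

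Most of these genes had a lower fitted level in the oeRNF112 samples, though few passed the test one by one. A test could be made for 50 of the 54 members. The other 4, COX4I2, COX8C, UQCRB-AS1 and UQCRFS1-DT, never exceeded 6 counts and were left out. The fitted log2 fold change was below 0 for 45 of the 50, against 49.6% of all 14467 genes tested. Its median was -0.27 (quartiles -0.33 and -0.16), or 82.7% of the vector level, beside a median of 0.00267 over all genes. With edgeR's quasi-likelihood test and an adjusted p under 0.05, 8 of the 50 fell and 1 rose, where the share over all genes was 18.1% in either direction, 8.14% lower and 9.97% higher. The members that fell were ATP5MC1, ATP5MC2, ATP5PB, ATP5F1A, ATP5F1C, ATP5MJ and ATP5MF of complex V and SDHC of complex II, and the member that rose was COX6B2 of complex IV. The vector and oeRNF112 values did not overlap for 8 members on the lower side and 1 on the higher side, beside 17.9% and 18.8% of all genes, and 36.8% in either direction. At an unadjusted p under 0.05 in edgeR there were 19 lower and 2 higher, beside 2311 lower and 2472 higher of all 14467 genes. DESeq2 called 10 members lower, beside 1478 of 23145 rows (6.39%). These rows include low-count genes left out of the 14467, so this share is not comparable with the 8.14%.

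**Figure D1:**
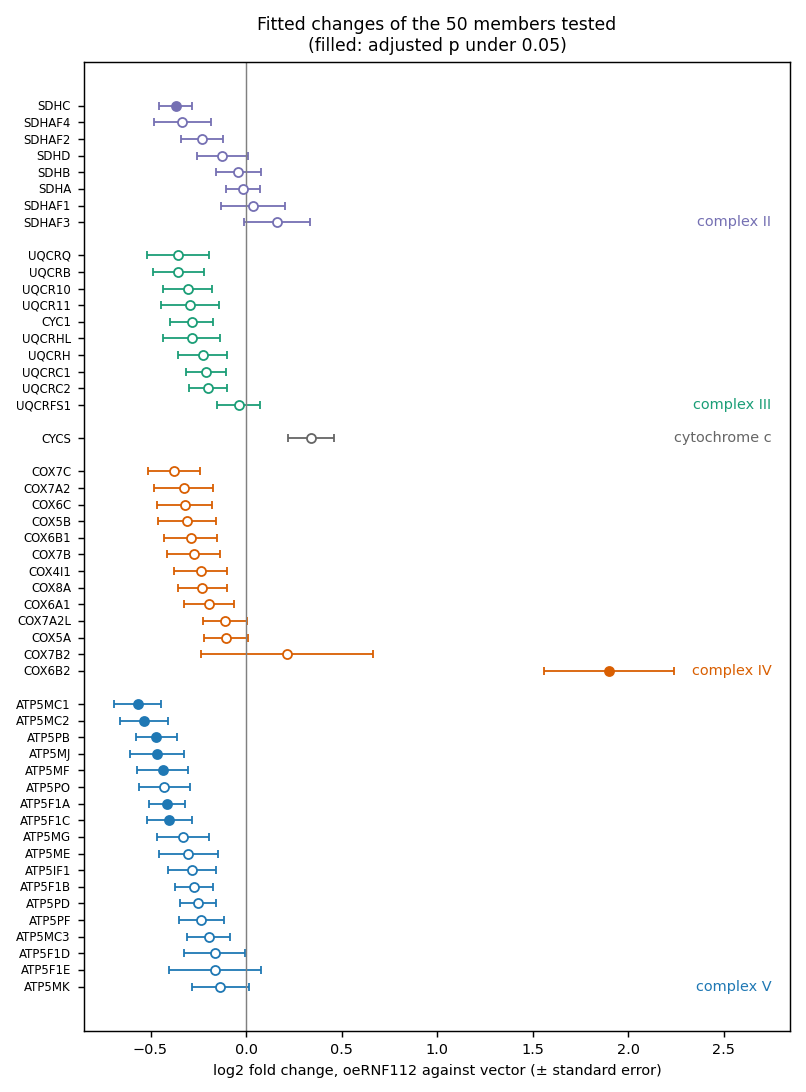
Fitted log2 fold change of oeRNF112 against vector (x axis, with the standard error as bars) for each of the 50 members tested (y axis, grouped by complex); filled points had an adjusted p under 0.05. All complex III and complex V points lie left of 0, 7 of the 8 filled points left of 0 belong to complex V, and COX6B2 at 1.90 lies far to the right.

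The replicates of each group were spread in a shared way over these genes. Each member's TMM-normalised log2 CPM was set against its mean in the vector samples, and the median over the 50 members was 0.08, -0.21 and 0.15 in vector 1, 2 and 3 and -0.29, -0.07 and -0.43 in oeRNF112 1, 2 and 3. The oeRNF112 2 sample thus lay above vector 2, so the groups overlapped in this median. Vector 2 was the lowest vector sample for 46 of the 50 members and for 5559 of all 14467 genes. Likewise oeRNF112 2 was the highest oeRNF112 sample for 46 of the members, against 5569 of all genes. In 40 of the 50 members vector 2 was below oeRNF112 2, as it was in 7213 of all genes. The number of members that fell therefore rested on single libraries: it was 25 without vector 2 and 11 without oeRNF112 2, where 10.5% and 6.86% of all genes fell. It was 4 without vector 3, 1 without oeRNF112 3, 0 without vector 1 and 0 without oeRNF112 1, where 5.2%, 3.63%, 2.43% and 2.93% of all genes fell. In the fits without vector 1 and without oeRNF112 1, 9 and 10 members were lower at an unadjusted p under 0.05 in edgeR. The share of all genes at that threshold was not computed for either fit. The members' median stayed between -0.37 and -0.18 in these 6 fits.

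**Figure D2:**
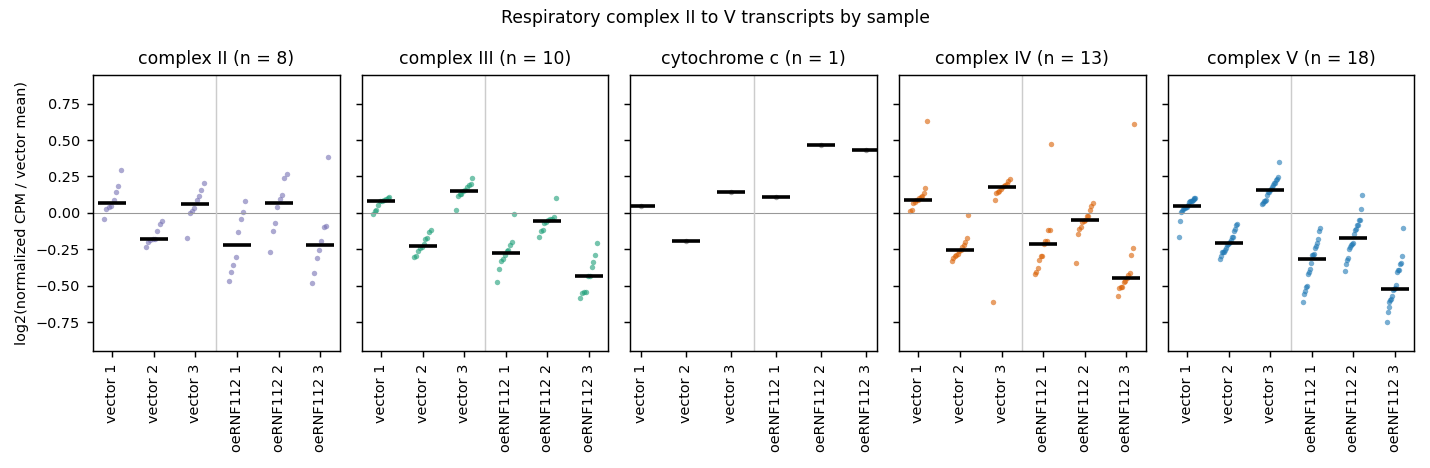
TMM-normalised log2 CPM of each member tested relative to its mean in the vector samples (y axis), by complex and by sample (x axis); dots are genes, drawn in order of value, black bars are medians, and COX6B2, which lies beyond the axis in oeRNF112, is not drawn. Vector 2 lies below the other vector samples and oeRNF112 2 above the other oeRNF112 samples in every complex with several members, whereas cytochrome c, a single gene, is higher in oeRNF112 2 and 3.

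The scaling of the libraries also bears on the counts. With TMM factors, 55.0% of the 2620 genes called over the whole table were higher in oeRNF112. With library totals alone, 75.4% were higher (2020 higher and 659 lower), the median of all genes moved to 0.10, and the members' median was -0.18 with 5 members lower, beside 4.56% of all genes, and 2 higher. limma on the deposited RPKM values gave 75.9% higher with a pseudocount of 1 and 75.7% with 0.1. In each of them 1 member fell and 1 rose, beside 1.83% and 1.86% of 23152 rows lower. These rows include low-count genes that edgeR did not test. When a trend of fold change with gene length was removed, 36.3% of calls were higher, the median of all genes was -0.06 and 22 members fell, beside 20.4% of all genes. The members' median length in the authors' table was 1.18 kb against 3.32 kb for all its genes, in both cases with untested genes included.

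Complex II had the median nearest to 0 of the 4 complexes, and SDHC was its 1 member that passed the test. Over its 8 genes the log2 fold changes had a median at -0.08, 6 were below 0, and the median was 0.012 under scaling by library totals. It was -0.17 both without vector 2 and without oeRNF112 2, and -0.03 without vector 1, without vector 3 or without oeRNF112 1. SDHC, a membrane anchor that holds the heme of the complex (chr1:161314381-161363206 in RefSeq GRCh38.p14), had 154, 144 and 151 CPM in vector and 117, 124 and 107 CPM in oeRNF112. All oeRNF112 samples were below all vector samples, and SDHC fell by 0.37 on the log2 scale (SE 0.0866, edgeR adjusted p = 0.0179). The other anchor, SDHD, had 103, 82.3 and 95.4 CPM against 70.3, 99.2 and 87.6 CPM, and these overlapped (log2 fold change -0.12, SE 0.133, adjusted p = 0.546). SDHA, the flavoprotein that oxidises succinate, had 144 ± 10.4 CPM in vector and 142 ± 6.89 CPM in oeRNF112 (SD, n = 3). SDHB, the iron-sulfur subunit, had 56.8 ± 7.09 and 55.2 ± 6.01 CPM. Both lay within the spread of the replicates, with fitted log2 fold changes of -0.02 and -0.04 that turned to 0.08 and 0.05 under library totals. The assembly factors ran from -0.33 for SDHAF4 to 0.16 for SDHAF3, with adjusted p-values of 0.151 and 0.54. Per length, SDHD was the most abundant gene of the complex at 61.5 ± 5.83 RPKM in vector and 60.2 ± 9.71 RPKM in oeRNF112.

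All 10 complex III genes had fitted log2 fold changes below 0, with a median of -0.28, and none passed the test. edgeR and DESeq2 each called 0 of them, and 3 had an unadjusted p under 0.05 in edgeR. The count depended on the libraries and the length correction, with 5 of the 10 lower without vector 2, 1 without oeRNF112 2 and 5 with the length trend removed. In those fits 10.5%, 6.86% and 20.4% of all genes fell. The lowest change was that of UQCRQ, a small subunit, with 95.6, 75.01 and 109 CPM in vector and 66.1, 89.4 and 62.7 CPM in oeRNF112 (log2 fold change -0.36, SE 0.161, adjusted p = 0.155). The oeRNF112 2 sample lay above vector 2 for this gene, so the groups overlapped. UQCRB, which binds ubiquinone, had the smallest adjusted p of the complex at 0.0898, with 258 ± 35.9 CPM in vector and 202 ± 28.9 CPM in oeRNF112. The nearest to 0 was UQCRFS1, the Rieske iron-sulfur protein, at -0.04 (SE 0.114, adjusted p = 0.842), and under library totals it was 0.06. The hinge protein gene UQCRH was the most abundant per length, at 272 ± 32.6 RPKM in vector and 248 ± 30.01 RPKM in oeRNF112. Its intronless copy UQCRHL had counts equal to 5.92, 5.93 and 6.23% of those of UQCRH in vector and 5.57, 5.86 and 6.01% in oeRNF112. Because reads of near-identical copies can be split by counting, the UQCRHL value is uncertain.

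CYCS, the somatic cytochrome c that carries electrons from complex III to complex IV, had a fitted change of the opposite sign. It had 139, 117 and 148 CPM in vector and 145, 186 and 181 CPM in oeRNF112, so that only vector 3 and oeRNF112 1 overlapped. The fitted log2 fold change was 0.34 (SE 0.121), with an edgeR adjusted p of 0.08, which does not pass the threshold. CYCS passed it with library totals and in none of the fits that left out a sample. The difference between CYCS and the complex V median in the same sample was 0.00, 0.02 and -0.02 on the log2 scale in vector 1 to 3 and 0.43, 0.64 and 0.95 in oeRNF112 1 to 3. These did not overlap, and the difference was not tested.

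In complex IV no widely expressed subunit passed the test, and 1 isoform gene present at a trace level rose. The 10 ubiquitous subunits all had log2 fold changes below 0, from -0.38 for COX7C to -0.11 for COX5A. edgeR called 0 of them, with 2 at an unadjusted p under 0.05, and DESeq2 called 1, COX7C. Without vector 2, 6 complex IV genes fell, with 1 without oeRNF112 2 and 4 with the length trend removed (13 were tested in the main fit). In those fits 10.5%, 6.86% and 20.4% of all genes fell. COX7C was the most abundant member of the complex per length, at 390 ± 50.4 RPKM in vector and 320 ± 43.4 RPKM in oeRNF112. Its CPM was 270, 211 and 279 in vector and 188, 228 and 169 in oeRNF112, where oeRNF112 2 lay above vector 2 (SE 0.135, edgeR adjusted p = 0.0804). COX4I1, the ubiquitous form of subunit 4, had 388, 308 and 422 CPM against 318, 364 and 266 CPM (log2 fold change -0.24, SE 0.141, adjusted p = 0.267). The ubiquitous forms of subunits 6A, 7A, 7B and 8 had log2 fold changes of -0.19 (COX6A1), -0.33 (COX7A2), -0.27 (COX7B) and -0.23 (COX8A), with adjusted p-values between 0.172 and 0.325. COX7A2L, a relative of subunit 7A that joins complexes III and IV into supercomplexes, had 116 ± 11.7 CPM in vector and 107 ± 13.5 CPM in oeRNF112, a difference smaller than either SD.

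The isoform genes known from testis or lung were almost silent. COX6B2, the testis form of subunit 6B, had 8, 17 and 15 counts in vector and 55, 43 and 61 counts in oeRNF112, that is 0.202, 0.425 and 0.389 CPM against 1.33, 1.05 and 1.44 CPM. The vector samples alone would not have carried COX6B2 past the filter on low counts. A gene at such a vector level is more likely to be tested if it is higher in oeRNF112, as COX6B2 was. Every oeRNF112 sample was above every vector sample, and the fitted log2 fold change was 1.90 (SE 0.339, edgeR adjusted p = 0.00514). With no filter on low counts it was called as well, and with at least 10 counts required in every sample it was not tested. COX6B2 stayed low beside its ubiquitous partner: 0.157 ± 0.0568 and 0.627 ± 0.11 RPKM for COX6B2, against 190 ± 31.4 and 166 ± 17.6 RPKM for COX6B1. In GENCODE v29, 30.9% of its exon bases are shared with AC020922.1 on the same strand, so its counts are uncertain to that extent. The same limit applies to other members with same-strand overlaps, among them COX8A (34.5%), SDHAF2 (30.5%), ATP5PO (19.6%), ATP5MF (8.57%) and ATP5MC2 (6.99%). COX7B2, the testis form of subunit 7B, had 0.43, 0.275 and 0.181 CPM in vector and 0.386, 0.219 and 0.425 CPM in oeRNF112, which overlapped (log2 fold change 0.21, SE 0.451, adjusted p = 0.773). COX4I2 and COX8C had at most 1 count per sample. COX6A2 and COX7A1, the muscle forms of subunits 6A and 7A, were not among the matched rows and were not analysed here. The bases before the RefSeq start of COX6B2 (GRCh38.p14, chr19:55354720-55354969, minus strand) are shown because this was the one member that rose, and the capitals mark CCAAT boxes on either strand.
COX6B2: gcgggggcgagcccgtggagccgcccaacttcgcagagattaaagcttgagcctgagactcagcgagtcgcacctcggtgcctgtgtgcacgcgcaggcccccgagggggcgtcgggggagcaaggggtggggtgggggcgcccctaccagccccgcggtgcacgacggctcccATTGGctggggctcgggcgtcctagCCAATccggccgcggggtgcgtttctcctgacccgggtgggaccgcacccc

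Complex V held most of the members that fell. All 18 of its genes had log2 fold changes below 0, with a median of -0.32, or 80.3% of the vector level, and 7 passed the test. That number was 13 without vector 2, 8 without oeRNF112 2, 3 without vector 3, 1 without oeRNF112 3 and 0 without vector 1 or oeRNF112 1. In those fits 10.5%, 6.86%, 5.2%, 3.63%, 2.43% and 2.93% of all genes fell, in the same order. The per-sample median was 0.05, -0.21 and 0.16 in vector and -0.32, -0.17 and -0.52 in oeRNF112, so that oeRNF112 2 lay above vector 2 here too. The medians of the other complexes in the same order of samples were 0.07, -0.18, 0.06, -0.22, 0.07 and -0.22 for complex II, 0.08, -0.22, 0.15, -0.28, -0.06 and -0.43 for complex III, and 0.09, -0.25, 0.18, -0.22, -0.05 and -0.45 for complex IV. Taken within each sample, complex V minus complex II was -0.02, -0.03 and 0.10 in vector and -0.10, -0.24 and -0.30 in oeRNF112. Complex V minus complex IV was -0.04, 0.04 and -0.02 against -0.10, -0.13 and -0.07. Complex V minus complex III was -0.03, 0.02 and 0.0064 against -0.04, -0.12 and -0.09, where vector 1 and oeRNF112 1 nearly met. In each case every oeRNF112 sample was lower than every vector sample, and none of these differences was tested.

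The rotating ring of complex V is built from subunit c, which 3 nuclear genes encode as the same mature protein with different import sequences. ATP5MC1 (chr17:48892787-48895871) had 67.6, 58.2 and 77.8 CPM in vector and 44.0, 51.2 and 42.1 CPM in oeRNF112. It fell by 0.57 on the log2 scale (SE 0.123, edgeR adjusted p = 0.0124), the lowest change among the 50 members tested, with no overlap. ATP5MC2 (chr12:53665170-53681423) had 170, 138 and 178 CPM against 114, 126 and 95.9 CPM, also without overlap, and fell by 0.53 (SE 0.126, adjusted p = 0.018). ATP5MC3 had 219, 180 and 226 CPM against 183, 200 and 163 CPM, which overlapped (log2 fold change -0.20, SE 0.113, adjusted p = 0.258). The share of ATP5MC3 in the summed RPKM of the 3 genes was 28.0, 27.4 and 26.5% in vector and 33.0, 32.1 and 32.4% in oeRNF112. That of ATP5MC1 was 45.9, 47.2 and 48.4% against 42.2, 43.6 and 44.6%, and that of ATP5MC2 was 26.1, 25.4 and 25.1% against 24.7, 24.3 and 23.0%. None of the 3 shares overlapped between the groups, and unlike the levels they do not depend on how the libraries were scaled. The differences in share were not tested.

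**Figure D3:**
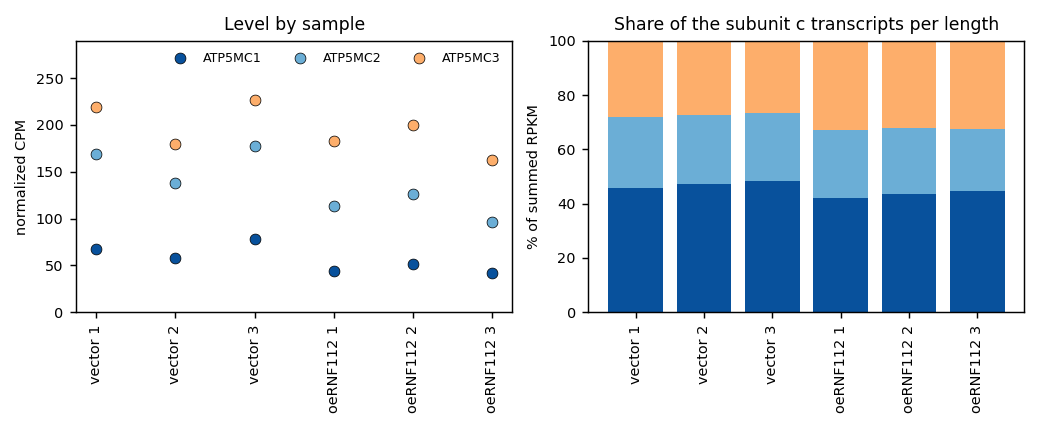
The 3 subunit c genes in each sample (x axis), as TMM-normalised CPM on the left (1 point per gene and sample) and as stacked percentages of their summed RPKM on the right (y axes), in the same colours. ATP5MC3 takes 26.5 to 28.0% of the sum in the vector samples and 32.1 to 33.0% in the oeRNF112 samples.

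In the catalytic head and shaft (F1), 2 of 5 genes passed the test. ATP5F1A, the alpha subunit (chr18:46080248-46104227), had 589, 534 and 611 CPM in vector and 443, 461 and 400 CPM in oeRNF112, and fell by 0.41 (SE 0.0938, edgeR adjusted p = 0.0155) with no overlap. ATP5F1C, the gamma shaft (chr10:7788177-7807801), had 199, 167 and 199 CPM against 142, 163 and 124 CPM and fell by 0.40 (SE 0.116, adjusted p = 0.0394), also with no overlap. ATP5F1B, the catalytic beta subunit, was the most abundant gene of the complex per length, at 401 ± 23.2 RPKM in vector and 354 ± 24.9 RPKM in oeRNF112. It had 749, 668 and 773 CPM against 595, 660 and 556 CPM, which did not overlap, yet its adjusted p was 0.0843 (log2 fold change -0.27, SE 0.0994). ATP5F1D was at -0.16 (adjusted p = 0.505). ATP5F1E, the epsilon subunit, was at -0.16 (adjusted p = 0.672) and had only 43 to 57 counts per sample.

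Of the 4 genes of the stalk that holds the head still 1 passed the test, and of the 5 membrane subunits beside the ring 2 did. ATP5PB, subunit b of the stalk (chr1:111449464-111462773), had 248, 206 and 242 CPM in vector and 163, 187 and 153 CPM in oeRNF112, and fell by 0.47 (SE 0.107, edgeR adjusted p = 0.0155) with no overlap. ATP5PO, the stalk protein that confers oligomycin sensitivity, lay just outside the threshold at -0.43 (SE 0.133, adjusted p = 0.0505), and DESeq2 called it. ATP5PD, subunit d, did not overlap between groups at -0.25 (adjusted p = 0.0948). ATP5MJ, the 6.8 kDa proteolipid (chr14:103912288-103921529), had 77.1, 60.5 and 83.5 CPM against 49.7, 62.6 and 47.8 CPM and fell by 0.47 (SE 0.141, adjusted p = 0.0456). ATP5MF, subunit f (chr7:99458195-99466167), had 42.9, 33.5 and 45.5 CPM against 27.8, 34.2 and 28.1 CPM and fell by 0.44 (SE 0.134, adjusted p = 0.0484). In ATP5MJ and ATP5MF, oeRNF112 2 lay above vector 2, so the groups overlapped although the test called them. The other genes of the stalk and membrane part, ATP5PF, ATP5MG and ATP5ME, were at -0.23, -0.33 and -0.30, with adjusted p-values of 0.194, 0.124 and 0.201. The gene nearest to 0 in complex V was ATP5MK at -0.13 (SE 0.15, adjusted p = 0.568). ATP5IF1, which inhibits ATP hydrolysis by the enzyme, had 61.3, 52.6 and 66.7 CPM against 49.3, 56.6 and 42.5 CPM, which overlapped (log2 fold change -0.28, SE 0.126, adjusted p = 0.149).

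**Figure D4:**
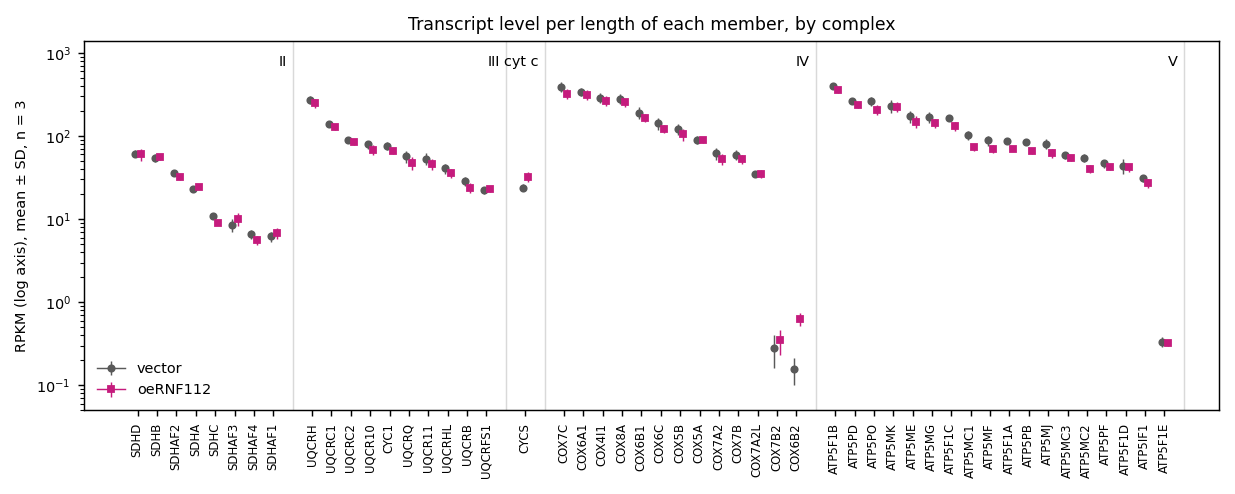
RPKM of each member tested (y axis, log scale), with genes on the x axis grouped by complex and ordered by their vector level; circles are vector and squares oeRNF112 means, with the SD of 3 samples as bars. Most members lie well above 10 RPKM, up to 401 RPKM for ATP5F1B in vector, while COX7B2, COX6B2 and ATP5F1E lie below 1 RPKM.

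The 250 bases before the start of each member were searched for short motifs known from promoters, on both strands. RefSeq entries on GRCh38.p14 matched 41 of the 50 members tested, with 47 windows. SDHC, ATP5MC3, ATP5MF, ATP5F1B, ATP5F1D, COX6C, CYC1, UQCRB and UQCRHL had none and were not searched. The bases just after the start were found in a GENCODE v29 transcript of the gene for 35 of the 41, and the starts of the other 6 (ATP5MC2, ATP5PB, ATP5PO, COX7A2L, COX7B2 and SDHAF1) are therefore less certain. The ETS motif CCGGAAGT was in 11 of the 47 windows (23.4%) against 3.42% of all 35116 windows, among them a window of ATP5F1A. The other ATP5F1A window (chr18:46104228-46104477, minus strand) held none of the motifs searched. NRF1 is a known activator of respiratory genes, and its palindromic motif, spelled by the capitals in the ATP5F1C line, was in 2 windows (4.26%, those of ATP5F1C and SDHD) against 1.03%. The E-box CACGTG, which MYC and related factors bind, was in 3 windows (6.38%, those of ATP5ME, ATP5PB and UQCR11) against 6.34%. The CCAAT box was in 18 windows (38.3%) against 32.0%, and TATAAA in 3 (6.38%) against 10.7%. AAGATGGCG, the YY1 motif, was in 2 windows of 1 gene, ATP5PF (4.26% against 0.652%). These windows overlap and hold the same site, so the percentage rests on a single occurrence. A match is only a run of letters, and factor binding was not measured. The windows of 4 members that fell are given here, each with 1 kind of motif in capitals: 4 CCAAT boxes in ATP5MC1 (chr17:48892537-48892786, plus strand), an E-box in ATP5PB (chr1:111449214-111449463, plus strand), the NRF1 run in ATP5F1C (chr10:7787927-7788176, plus strand) and the ETS motif, read on the other strand, at a start of ATP5F1A (chr18:46098297-46098546, minus strand).
ATP5MC1: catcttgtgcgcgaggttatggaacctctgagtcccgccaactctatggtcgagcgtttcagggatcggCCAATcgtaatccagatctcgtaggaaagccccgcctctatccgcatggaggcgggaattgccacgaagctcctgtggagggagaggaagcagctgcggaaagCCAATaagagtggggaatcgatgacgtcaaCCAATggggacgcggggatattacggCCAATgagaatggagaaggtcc
ATP5PB: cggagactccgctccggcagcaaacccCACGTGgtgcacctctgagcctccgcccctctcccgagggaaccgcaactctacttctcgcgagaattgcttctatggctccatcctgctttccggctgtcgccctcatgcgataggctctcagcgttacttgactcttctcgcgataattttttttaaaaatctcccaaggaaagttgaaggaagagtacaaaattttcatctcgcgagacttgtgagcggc
ATP5F1C: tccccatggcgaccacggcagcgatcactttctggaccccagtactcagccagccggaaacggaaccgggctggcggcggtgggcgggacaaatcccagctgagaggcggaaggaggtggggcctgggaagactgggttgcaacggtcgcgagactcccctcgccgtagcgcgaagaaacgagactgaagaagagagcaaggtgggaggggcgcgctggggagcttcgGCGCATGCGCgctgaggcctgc
ATP5F1A: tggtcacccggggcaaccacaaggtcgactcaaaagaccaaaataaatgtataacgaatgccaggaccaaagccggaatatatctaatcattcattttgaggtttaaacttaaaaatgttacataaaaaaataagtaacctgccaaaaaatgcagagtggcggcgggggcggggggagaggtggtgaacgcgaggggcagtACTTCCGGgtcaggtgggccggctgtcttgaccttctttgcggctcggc

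The subunits of complexes III, IV and V that mtDNA encodes also had fitted values below 0, with another order of samples. All 6 of those tested had log2 fold changes below 0, and 3 fell: COX3 of complex IV by 0.97 (SE 0.128, edgeR adjusted p = 0.00121), ATP6 of complex V by 0.72 (SE 0.14, adjusted p = 0.00764) and CYTB of complex III by 0.58 (SE 0.137, adjusted p = 0.0172). Of all genes tested, 8.14% fell. COX3 had 3874, 3414 and 4229 CPM in vector and 2133, 1650 and 2081 CPM in oeRNF112. COX1, COX2 and ATP8 were at -0.23, -0.29 and -0.81, with adjusted p-values of 0.26, 0.185 and 0.0583. Set against the vector mean, the 6 genes had medians of -0.01, -0.15 and 0.16 in vector and -0.53, -0.98 and -0.37 in oeRNF112. The oeRNF112 2 sample was thus the lowest of its group for the mtDNA genes and the highest for the nuclear members.

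**Figure D5:**
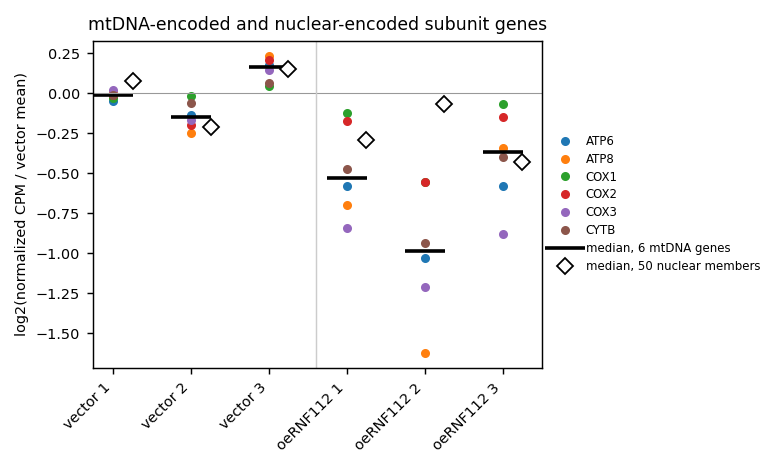
Log2 CPM relative to the vector mean (y axis) in each sample (x axis) for the mtDNA-encoded genes (dots, with bars at their median) and the median of the nuclear members (diamonds). In oeRNF112 2 the mtDNA median is -0.98 while the nuclear median is -0.07.

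Genes that assemble, feed or serve these complexes were taken from lists of known function. In the same fit 8.14% of all genes tested fell and 9.97% rose, and no list was tested as a set. Of 6 complex III assembly genes 1 fell, UQCC1 at -0.41 (SE 0.0913, edgeR adjusted p = 0.0134). Of 25 complex IV assembly genes 3 fell, with COA3, which helps the mtDNA-encoded COX1 protein to mature, at -0.65 (SE 0.138, adjusted p = 0.0114), COA5 at -0.39 (adjusted p = 0.0295) and SURF1 at -0.39 (adjusted p = 0.0364). Of 4 complex V assembly genes tested 1 fell, ATPAF2, a chaperone of the alpha subunit, at -0.48 (adjusted p = 0.0261). Among 7 carriers and porins 3 fell, namely the ADP/ATP carrier SLC25A5 at -0.46 (adjusted p = 0.0136), the phosphate carrier SLC25A3 at -0.44 (adjusted p = 0.0176) and the outer membrane porin VDAC3 at -0.38 (adjusted p = 0.0336). The list's median was -0.01, so its genes were spread to both sides of 0. Of 18 pyruvate dehydrogenase and citric acid cycle genes 3 fell, IDH3G at -0.40, IDH3B at -0.44 and PDHB at -0.33, and 1 rose, IDH3A at 0.29, so that the 3 subunits of the citric acid cycle enzyme isocitrate dehydrogenase 3 had opposite signs. The median of this list was -0.13. Of 12 regulators of respiratory genes 2 rose: PPARGC1A, a coactivator that raises mitochondrial gene expression, had 28, 57 and 21 counts in vector and 85, 81 and 130 in oeRNF112 (log2 fold change 1.40, SE 0.352, adjusted p = 0.0231), and its relative PPARGC1B was at 0.97 (SE 0.26, adjusted p = 0.03). For comparison, 6 of 41 complex I subunits fell with a median of -0.33 (NDUFA9 at -0.43, NDUFV1 at -0.41 and NDUFA2 at -0.52 had the smallest p). Among 80 mitochondrial ribosomal protein genes 13 fell with a median of -0.23 (MRPS27 at -0.56, MRPL45 at -0.65 and MRPL30 at -0.43). Calls in these lists also depended on single libraries. In the 6 fits that left out a sample, PPARGC1A, PPARGC1B, COA5, SURF1, ATPAF2, IDH3G and IDH3B were each called in 2. SLC25A3, VDAC3, NDUFA9, NDUFV1 and NDUFA2 were also called in 2, and PDHB in 1. MRPS27 and MRPL45 were called in all 6, COA3 in 5, and UQCC1, SLC25A5 and MRPL30 in 4.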

How the data were processed

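RNA was extracted with TRIzol and libraries were made with a stranded mRNA kit, per the labels. The authors deposited raw read counts per gene and RPKM values for 6 samples. The submitters' processing notes name Trimmomatic 0.36, featureCounts, Subread 1.5.1 and GRCh38; the aligner and annotation release are not given in the sources used here. The deposited RPKM equals count divided by total count and gene length in 114767 of 114767 nonzero values (tolerance 0.1%).

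Counts were filtered with filterByExpr, scaled with TMM factors and tested with edgeR 4.0.16 in R 4.3.3 (glmQLFit and glmQLFTest, group only, all 6 samples). Adjusted p-values are Benjamini-Hochberg over all 14467 genes tested, with a threshold of 0.05. CPM is TMM-normalised, values in groups are mean ± SD over 3 samples, and SE is the standard error of the log2 fold change. The script was tested on simulated data, where edgeR recovered 37% of changes of 0.5 and 91% of changes of 1 on the log2 scale. It made 10 false calls among 138, so changes of 0.5 were often missed there. DESeq2 1.42.0 and limma 3.58.1 on log2(RPKM + 1) or log2(RPKM + 0.1) were alternatives, besides library totals, other count filters, a length correction, a replicate block and leaving out each sample. The labels do not say whether equal replicate numbers pair the samples, and the main fit did not pair them.

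The genes named were RNF112, every member past the threshold, the most abundant and the most extreme members of each complex, the isoform genes, the SDH subunits, CYCS and ATP5IF1, and up to 3 called genes with the smallest p of each other list. Further genes were named after their values were seen. The members and lists were chosen with earlier results of these data known. Promoter sequences and positions are from RefSeq (GRCh38.p14), and overlaps between genes from GENCODE v29.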

Additional observations from a re-analysis of the deposited data

How the results depend on the processing

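The members' median log2 fold change was between -0.37 and -0.18 in all alternatives, and the medians of complexes III, IV and V were below 0 in each. That of complex II turned to 0.012 with library totals and was also above 0 with limma. The number of all genes differing was 2620 and became 876 with a replicate block, 4623 with the length trend removed, and 1061 to 3387 when a sample was left out. The number of members lower was 8 and became 5 with library totals and 1 with limma at either pseudocount. It was 22 with the length trend removed and 0 to 25 when a sample was left out. With the replicate block it was 0, where 1.78% of all genes were called lower. At an unadjusted p under 0.05 in edgeR the block fit had 9 members lower, and the share of all genes at that threshold was not computed. DESeq2 called 10 lower, beside 6.39% of 23145 rows with low-count genes included. The number of members higher was 1 and became 2 with library totals and 0 where at least 10 counts were required in every sample, which leaves COX6B2 untested. Correlations of the deviations of same-numbered samples were -0.12, -0.36 and -0.30. The labels do not say whether such samples were handled together, and 3 samples a group are too few for these values to decide it. With the block 70.5% of calls over all genes were higher.

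Several genes near 0 changed sign. With library totals, limma at a pseudocount of 1 and limma at 0.1, SDHA was 0.077, 0.075 and 0.078, SDHB was 0.054, 0.055 and 0.056, and UQCRFS1 was 0.055, 0.053 and 0.055. With the length trend removed SDHB was 0.015. With a sample left out, the log2 fold change of SDHA ran from -0.057 to 0.045, of SDHB from -0.14 to 0.043, of UQCRFS1 from -0.12 to 0.043, of ATP5F1D from -0.3 to 0.031, of COX7B2 from -0.033 to 0.59 and of SDHAF1 from -0.076 to 0.17. Of 1198 values for 80 genes (the 50 members tested, RNF112 and up to 3 called genes of each list), 939 kept their direction and side of the threshold, 201 lost a call, 38 gained one and 20 changed sign. The cause was not tested. At 3 samples a group, precision is limited by the spread between samples and for low genes also by counting error, as for COX6B2, COX7B2 and ATP5F1E with at most 61 counts.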

Other observations

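ATP5F1E was listed at 0.336 ± 0.0497 RPKM in vector and 0.321 ± 0.0234 RPKM in oeRNF112 (SD, n = 3), while the other 4 F1 genes, whose products occur in the same enzyme, were at 44.0 to 401 RPKM in vector. In GENCODE v29, 23.2% of its exon bases overlap TUBB1 on the opposite strand, and RefSeq lists the readthrough gene SLMO2-ATP5E over it. How the counting treated these reads was not tested, so the level of ATP5F1E is uncertain. The authors' gene lengths for UQCRB (8.71 kb) and SDHC (13.4 kb) are long beside the members' median of 1.18 kb, which lowers the RPKM of both genes relative to other subunits. With the length trend removed, the log2 fold change of UQCRB went from -0.35 to -0.50 (adjusted p 0.0898 and 0.0351, edgeR) and that of SDHC from -0.37 to -0.52.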
